A study of Mus musculus with 12 samples.

Results

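The set described here holds 152 of the 14236 circRNA probes on the array. They were chosen by the detection calls of the scanner software, which put each of them not well above background on all 3 SHAM arrays and well above it on all 3 arrays of MCAO 24 h. Circular RNAs form when a downstream splice donor is joined back to an upstream acceptor, and the closed ring has no free end for an exonuclease to attack. They last long in blood cells, and some bind miRNAs or proteins. In middle cerebral artery occlusion (MCAO) a filament passed through the carotid artery blocks the vessel that feeds much of one cerebral hemisphere, which makes it a common model of ischemic stroke.

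Blood came from male Balb/c mice, 8 weeks old on the labels and older in the methods, in 4 groups of 3. SHAM mice had the operation with an occlusion of 0 min, and the other groups had MCAO for 5 min, 3 h or 24 h. All mice received isoflurane, and whole blood was drawn from the heart. The samples of a group are biological replicates by the study's description. Total RNA was treated with RNase R, which digests linear RNA, labeled with Cy3 and hybridized to one-colour arrays with 1 probe per circRNA.

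The 12 arrays lay on 2 slides. Slide 1 held SHAM, 5 min and replicates 1 and 2 of 3 h, and slide 2 held replicate 3 of 3 h and all of 24 h. The groups that define the set therefore share no slide, and slide and time cannot be told apart in 24 h against SHAM. The median of the 77 negative control spots was 25 to 27 intensity units on slide 1 and 83.5 to 101 on slide 2. The local background beside the spots was 20 to 24 units on all 12 arrays. Between 70.9% and 90.2% of all circRNA probes were well above background on an array. Replicate 3 of 3 h and replicate 1 of 24 h stood apart from the rest of their groups. Their log2 intensities correlated with each other at r = 0.93 over 14236 probes, while replicates 2 and 3 of 24 h correlated with replicate 1 at 0.88 and 0.84. Those 2 replicates of 24 h correlated with each other at 0.98. Replicate 3 of 3 h was nearly as close to its own group, at 0.91 and 0.90 with replicates 1 and 2, which correlated with each other at 0.99. In bulk blood, fewer cells of a type and less RNA per cell cannot be told apart.

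None of the 152 probes is among the 903 circRNAs to which a name could be matched, so the members are given by probe number, without host gene, genomic place or sequence. Names came only from the study's list of differential circRNAs, made after it removed probes not brighter than controls on every array. A limit of that kind set here kept 6 members, so the lack of a match says little about them. The blood label was not tested against marker genes.

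The rule picked a small end of a graded range. Detected here means called well above background, so an undetected probe can still carry signal. Of 1596 probes that were undetected on all SHAM arrays, 590 stayed undetected on all 24 h arrays, 625 were detected on 1 of them, 229 on 2 and 152, or 9.52%, on all 3. The reverse pattern, detected on every SHAM array and on no 24 h array, held for 269 probes. These counts come from the arrays that chose the members and carry no test.

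Members were dim wherever the rule required them to be, and most were dim at 24 h as well. Their median raw intensity was 29, 30.75 and 30 units on the SHAM arrays and 29, 30 and 30 at 5 min. It was 37 and 36 on replicates 1 and 2 of 3 h and 118.5 on replicate 3. At 24 h it was 141, 135.25 and 133. The step between slides was thus shared by members and negative controls. Divided by the negative control median of its own array, the member median was 1.16, 1.23 and 1.20 in SHAM, then 1.12, 1.15 and 1.13 after 5 min, 1.37, 1.33 and 1.42 after 3 h and 1.58, 1.34 and 1.36 after 24 h. By this ratio replicates 2 and 3 of 24 h lay within the range of the 3 h arrays. The part of the slide step in the detection calls was not tested. A call made against the negative controls chose largely other probes. This call used background-corrected, normalized intensities in place of the raw units above. Under a limit of 1.1 times their 95th percentile on that scale, 100, 81 and 79 of the 152 members were above it in SHAM. There were 45 members above it on all 3 SHAM arrays and 26 on none. On each 24 h array all 152 were. The rule applied with that limit chose 244 probes, and 26 of them were among the 152.

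**Figure D1:**
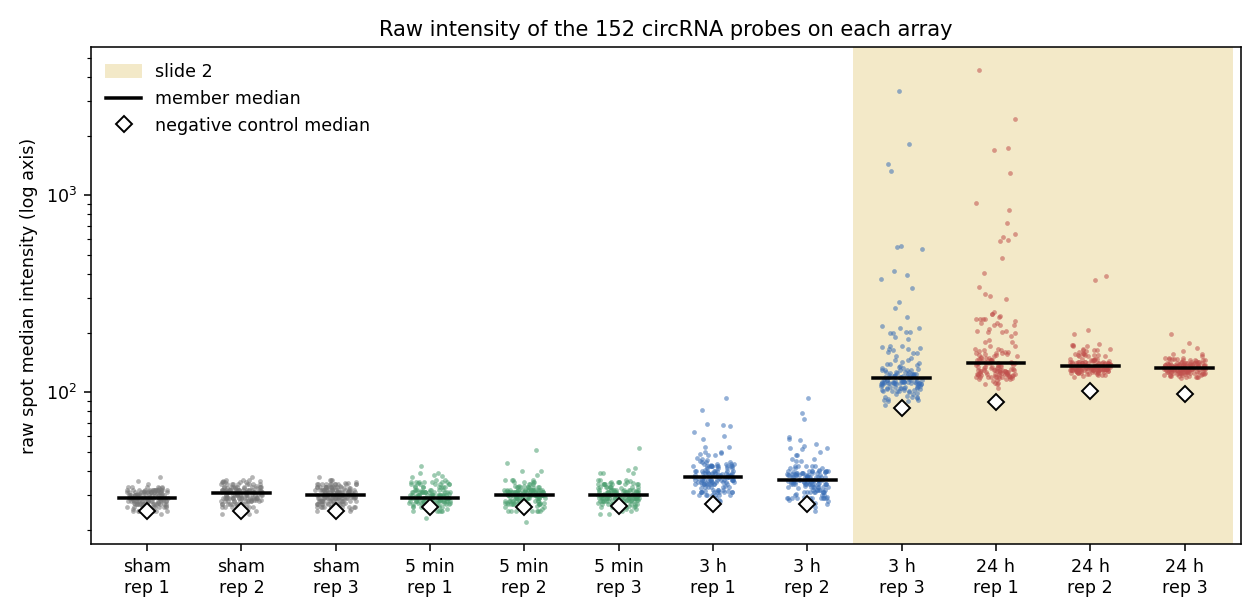
Raw spot median intensity (log axis) of the 152 members on each of the 12 arrays, with 1 point per probe, a bar at the member median and a diamond at the negative control median. The diamonds and the bars both stand higher on slide 2 (shaded), and the brightest points belong to replicate 3 of 3 h and replicate 1 of 24 h.

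The arrays that the rule did not use gave a first view of the hours between. At 5 min, 11 (7.24%), 4 (2.63%) and 7 (4.61%) of the 152 members were well above background, and 132 were detected on no 5 min array. All circRNA probes stood at 70.9%, 74.7% and 77.1% on these arrays, and the 1444 other probes undetected in SHAM at 0.69%, 0.62% and 1.73%. At 3 h, 40 (26.3%) and 50 (32.9%) were detected in replicates 1 and 2, and 118 (77.6%) in replicate 3. All circRNA probes were detected at 84.1%, 84.5% and 88.0% on the same arrays. The 1444 other probes undetected in SHAM gave 5.06% and 9.63% in replicates 1 and 2 and 41.2% in replicate 3. At 24 h, on the same slide as that replicate, they gave 51.1%, 18.1% and 5.82%. The 24 h arrays also chose these other probes, since each was undetected on at least 1 of them. Their shares beside those of the members are therefore a description only.

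Detection at 3 h differed between replicate 3 and the other pair. A total of 76 members were detected in replicate 3 and in neither replicate 1 nor 2, while 18 were detected in replicate 1 or 2 and not in replicate 3. Of 30 members detected in both replicates 1 and 2, replicate 3 detected 20. A further 16 of 152 were detected on no 3 h array. These counts stand without a share of all probes and are a description only.

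**Figure D2:**
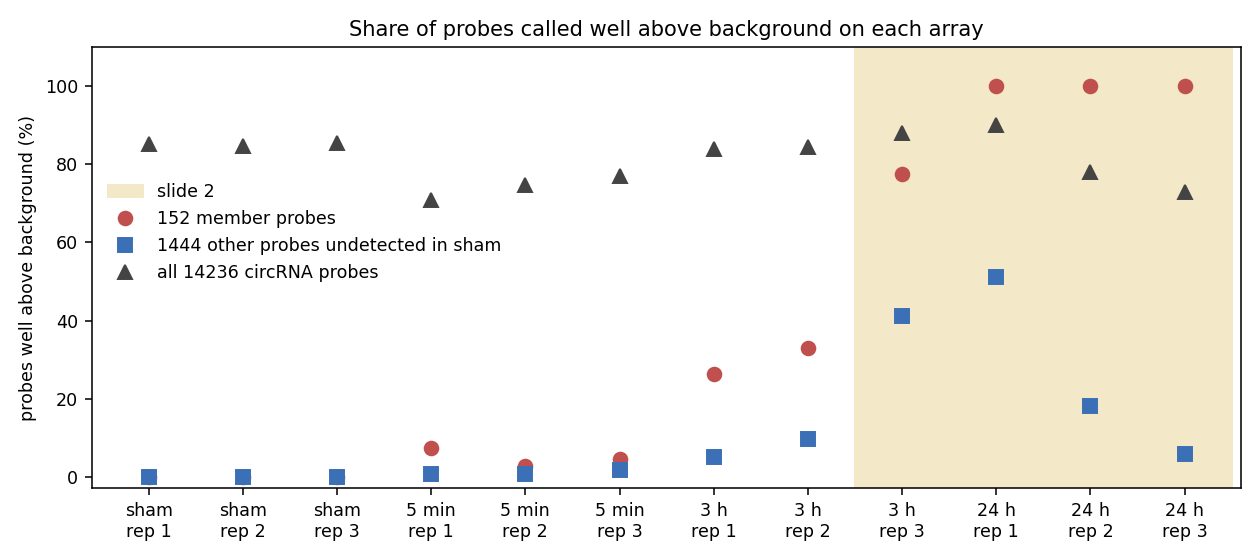
Percent of probes called well above background on each array, for the 152 members (circles), the 1444 other probes undetected in SHAM (squares) and all 14236 circRNA probes (triangles). The values of 0% in SHAM and 100% at 24 h follow from the rule, and each of the other probes missed at least 1 array of 24 h. At 3 h the members stood at 26.3% and 32.9% on the slide 1 arrays and at 77.6% on the slide 2 array (shaded).

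The difference between 3 h and 5 min contains no SHAM or 24 h level. Replicate 3 of 3 h lay on slide 2 with the 24 h arrays, and 5 min lay on slide 1 with SHAM. The rule asked for no detection on slide 1 arrays and for detection on slide 2 arrays. Members could therefore stand higher at 3 h by selection, and their shares beside those of all probes are a description only. Log2 intensities were corrected for local background, quantile normalized and fitted with limma in one model of the 4 groups, so the SHAM and 24 h arrays that chose the members do enter the estimate of spread. Of 14236 circRNA probes, 0.997% passed an adjusted p of 0.05. Among the members 1 of 152 did, ASCRP4007432, which is 0.658%. At an unadjusted p of 0.05 the counts were 25 members (16.4%) against 19.1% of all probes. By direction, 24 of the 25 were higher at 3 h (15.8%, against 8.57% of all probes) and 1 was lower (0.658%, against 10.6%). All 3 arrays of 3 h lay above all 3 of 5 min for 27 members (17.8%, against 12.6% of all probes) and below them for 5 (3.29%, against 17.2%). At 5 min the member median was 1.12, 1.15 and 1.13 times the negative control median, against 1.92, 2.65 and 2.34 for all probes. Members so near the controls had little room to fall, and the part of this in their shares of lower probes was not tested. The median difference was 0.43 log2 units for the members, 0.09 for the other probes undetected in SHAM and -0.04 for all probes. The member median was 0.12 without background subtraction, 0.11 with a normexp offset of 50 and 0.22 in the log2 table of the authors.

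Without the array on slide 2 the median was near 0. Within slide 1, where replicates 1 and 2 of 3 h were set against 5 min, the member median was 0.07 log2 units and that of all probes was -0.05. No member passed in limma, against 1.43% of all probes. At an unadjusted p of 0.05 there were 15 members (9.87%) against 14.2%. Of these, 14 were higher at 3 h (9.21%, against 7.94% of all probes) and 1 was lower (0.658%, against 6.23%). Both slide 1 arrays of 3 h lay above the 3 arrays of 5 min for 34 members (22.4%), close to the 20.2% of all probes. They lay below them for 14 (9.21%), against 23.1%. The limit on falls from 5 min given above holds here too.

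Replicate 3 of 3 h was then set against replicates 1 and 2, the only contrast within a time point that crosses the slides. It rests on 1 sample against 2, so slide and mouse cannot be told apart. The rule itself asked for no detection on slide 1 arrays and for detection on slide 2 arrays. Members could therefore stand higher on slide 2 by selection, and their shares are set beside those of all probes as a description only. Replicate 3 was above both others for 104 members (68.4%, against 36.6% of all probes) and below both for 31 (20.4%, against 49.2%). The median difference was 0.58 log2 units for the members, 0.37 for the other probes undetected in SHAM and -0.11 for all probes. The member median was 0.20 without background subtraction, 0.17 with an offset of 50, 0.33 in the log2 table of the authors and 2.24 with the processed signal scaled to its 75th percentile. In limma 0 members and 0% of 14235 probes passed the adjusted p. At an unadjusted p of 0.05 there were 43 members (28.3%) against 16% of all probes. Of these, 41 were higher in replicate 3 (27.0%, against 6.71%) and 2 were lower (1.32%, against 9.28%). Without replicate 1 of 24 h, 34 members passed, all higher in replicate 3, and 9.36% of all probes did. That array takes no part in the difference itself but enters the shared estimate of spread.

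The slide 2 arrays can also be compared among themselves. The members were 0.54 log2 units (median) higher at 24 h than in replicate 3 of 3 h, and 116 of 152 were higher. All probes had a median of 0.02. Since the 24 h arrays chose the members, this value is a description only.

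**Figure D3:**
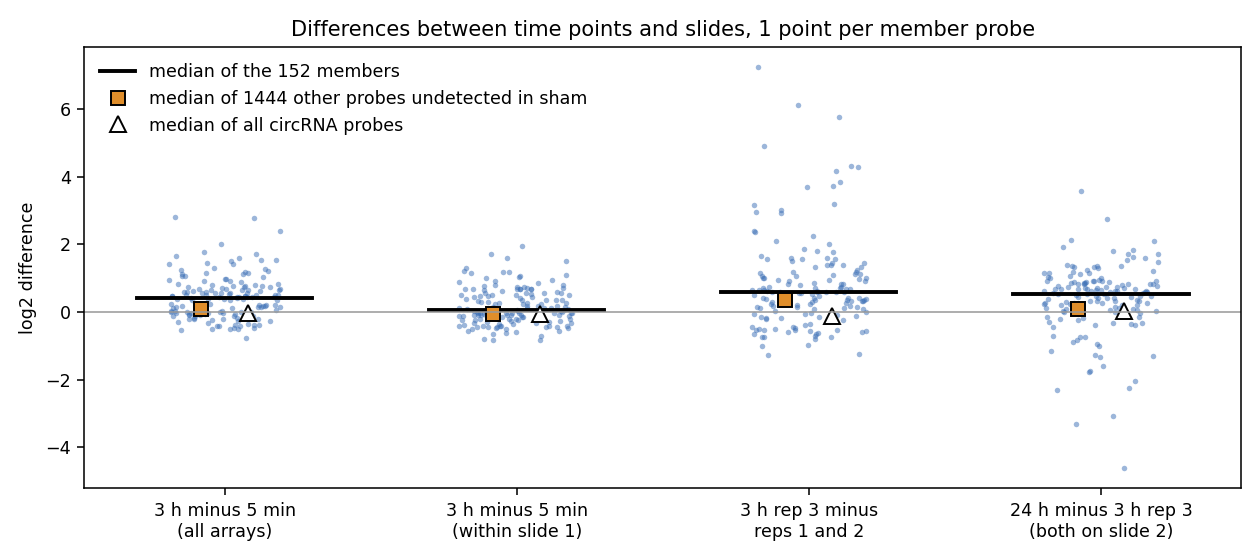
Log2 differences of the 152 members, 1 point per probe, with bars at their medians, squares at the median of 1444 other probes undetected in SHAM and triangles at the median of all circRNA probes. The member median was 0.43 for 3 h minus 5 min, 0.07 within slide 1, 0.58 for replicate 3 minus replicates 1 and 2 of 3 h, and 0.54 for 24 h minus replicate 3 of 3 h.

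The rank of the brightest members at 24 h rested mainly on 1 array. ASCRP4005768 had raw intensities of 27.5, 31 and 32 in SHAM, then 27, 29 and 28 after 5 min, 40, 35 and 3409 after 3 h and 4338, 125 and 122 after 24 h. Only replicate 3 of 3 h and replicate 1 of 24 h were bright, and the other 24 h arrays stood at 125 and 122 against negative control medians of 101 and 98. The slide 2 array of 3 h was 7.23 log2 units (SE 1.98) above the slide 1 pair, with an adjusted p in limma of 0.156. ASCRP4001533 read 29, 29 and 30 in SHAM, then 26, 30 and 31 after 5 min, 36, 38 and 1830 after 3 h and 2432, 138 and 141.5 after 24 h. For this probe replicate 3 of 3 h was 6.12 log2 units above replicates 1 and 2 (SE 1.53, adjusted p in limma 0.152). Without replicate 1 of 24 h the adjusted p was 4.39e-07 for ASCRP4005768 and 2.05e-06 for ASCRP4001533. It ran from 4.39e-07 to 0.627 and from 2.05e-06 to 0.627 over the alternatives tried.

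Several further members had the same pair of bright arrays. ASCRP4013940 read 26.5, 29 and 29 in SHAM, then 27.5, 30.5 and 30 after 5 min, 39, 37 and 1323 after 3 h and 1734.5, 137 and 133 after 24 h. ASCRP4004576 read 29, 27 and 32 in SHAM, then 33.5, 29 and 32 after 5 min, 36, 37 and 533.5 after 3 h and 724, 138 and 133 after 24 h. ASCRP4000122 and ASCRP4011661 followed at 479.5 and 584.5 in replicate 1 of 24 h, 411 and 394.5 in replicate 3 of 3 h, and at most 148 and 142.5 in the other 24 h arrays. ASCRP4002448 read 60, 53.5 and 1452 at 3 h and 1707, 197 and 168 at 24 h, and it was one of 2 members detected on 2 arrays of 5 min, at 39, 35 and 39. The other was ASCRP4004227, named after its values were seen, at 38, 40 and 30.

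This pattern was shared with probes outside the set. Replicate 3 of 3 h and replicate 1 of 24 h were both above the 10 other arrays by more than 2 log2 units for 10 members (6.58%) and for 289 of all circRNA probes (2.03%). No member exceeded 4 times the negative control median except on these arrays. Replicate 3 of 3 h had 11 that did and replicate 1 of 24 h had 14, and all 11 were among the 14. Across the 152 members, the rank correlation of log2 intensity was 0.69 between these arrays and 0.66 between replicates 2 and 3 of 24 h. It was 0.24 and 0.23 between replicate 1 of 24 h and the other 24 h arrays, and 0.03 and 0.04 between replicate 3 of 3 h and the other 3 h arrays. These correlations are a description over 152 probes, which share the library and labeling of each array.

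**Figure D4:**
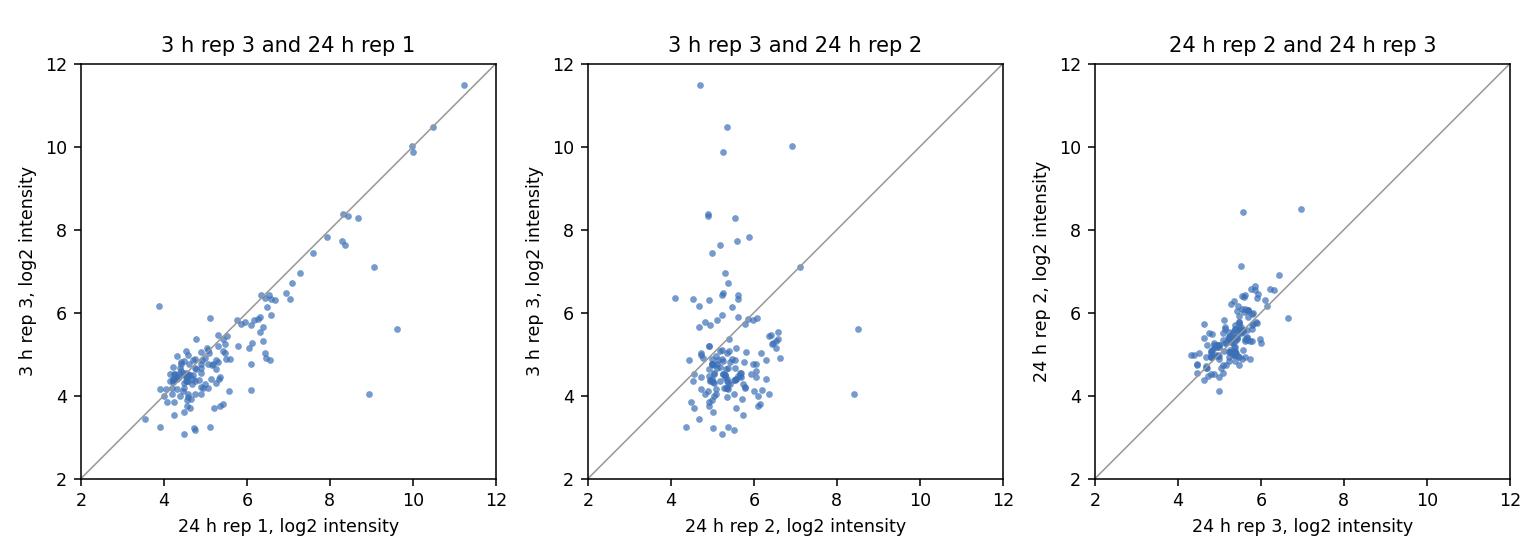
Normalized log2 intensity of the 152 members on pairs of slide 2 arrays, with the line of equal values. Replicate 3 of 3 h followed replicate 1 of 24 h up to the brightest probes (left) and not replicate 2 of 24 h (middle), whose values kept with those of replicate 3 of 24 h (right).

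Of the 10 brightest members, 3 had another shape, with replicate 3 of 3 h well below replicate 1 of 24 h. ASCRP4006091 had the highest mean at 24 h. It read 29, 33 and 32 in SHAM, then 31, 31.5 and 30 after 5 min, 50, 58 and 152 after 3 h and 1307, 390.5 and 197 after 24 h. All 24 h arrays lay above all 3 h arrays, and all 3 h arrays above all of SHAM and 5 min. On background-corrected values the bound of its 24 h level over that of SHAM was 19.5-fold. This bound sets each SHAM value at the dimmest probe called well above background on that array, or at its own value if higher. Here all SHAM values were higher, so 19.5-fold is the plain ratio across the slides and no minimum. ASCRP4007580 read 27, 28 and 28 in SHAM, then 30, 27 and 24 after 5 min, 31, 36 and 106 after 3 h and 839.5, 373 and 141 after 24 h, with all arrays of 24 h above every array of 3 h. ASCRP4005753 read 49, 51.5 and 286.5 at 3 h and 914.5, 207 and 136 at 24 h.

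Over all 152 members the bound of 24 h over SHAM ran from 1.19-fold to 19.5-fold, with a median of 2.40-fold. The bound rests on background-corrected values across the slides and is no minimum under other processing. It was 4-fold or more for 24 members. Without replicate 1 of 24 h the highest bound was 12.7-fold and the median 2.64-fold. The spread within the 24 h group was wide at the bright end, with an SD of 0.08 to 3.78 log2 units and a median of 0.48 over the members. Replicate 1 was the highest of the 3 for 46 members and the lowest for 93. It stood more than 1 log2 unit above both others for 25 members and more than 1 below both for 13.

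A smaller group was already detected at 3 h on both slides. In all, 20 members were well above background on the 3 arrays of 3 h, and 12 of these on no array of 5 min. No share of all probes was set beside these counts, so they are a description only. ASCRP4007432 was the brightest of the 12 on slide 1. It read 28, 29 and 27 in SHAM, then 33, 32 and 30.5 after 5 min, 67, 94 and 185.5 after 3 h and 236, 139 and 134 after 24 h. With background-corrected values its bound of 3 h over 5 min was 2.97-fold, and the fitted difference was 1.71 log2 units (SE 0.34, adjusted p in limma 0.0416). The size depended on the background step, at 0.68 log2 units without subtraction, 0.69 with an offset of 50, 1.15 in the log2 table of the authors and 2.87 with the processed signal. Within slide 1 it was 1.59 (SE 0.38, adjusted p in limma 0.0705). The call was close to the threshold. It was lost without SHAM replicate 2 or 3, 5 min replicate 2 or 3, any one of the 3 h replicates or 24 h replicate 2, and the adjusted p over all alternatives ran from 0.000149 to 0.188.

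The next members of this group had levels in replicates 1 and 2 of 3 h that did not overlap 5 min. ASCRP4006162 read 29.5, 29 and 29 in SHAM, then 33, 32 and 30 after 5 min, 81, 78 and 139 after 3 h and 231, 172 and 147 after 24 h. Within slide 1 it was 1.29 log2 units higher at 3 h (SE 0.34, adjusted p in limma 0.0915). ASCRP4011037 read 28, 32 and 33 in SHAM, then 33, 32 and 34 after 5 min, 68, 73 and 123 after 3 h and 242.5, 161.5 and 153 after 24 h. Its difference within slide 1 was 1.02 log2 units (SE 0.25, adjusted p in limma 0.0722). ASCRP4006891 read 63, 59 and 121 at 3 h against 30, 33 and 34 at 5 min, with 0.85 log2 units within slide 1 (SE 0.23, adjusted p in limma 0.108). On these 3 probes the slide 2 array of 3 h was the lowest of its group after normalization, at 5.33, 4.85 and 4.77 log2 units, although its raw reading was the highest. Without replicate 1 of 24 h, 5 members passed within slide 1, against 4.72% of all probes. They were ASCRP4007432, ASCRP4006162, ASCRP4011037, ASCRP4006891 and ASCRP4007183. ASCRP4007183, named after its values were seen, read 42, 35.5 and 556.5 at 3 h and 595, 129 and 127 at 24 h, and its difference within slide 1 in that fit was 1.52 log2 units (adjusted p in limma 0.0128).

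The other members of this group were dimmer. ASCRP4011249, ASCRP4013327, ASCRP4003026 and ASCRP4002593 lay between 41 and 53 raw units on the slide 1 arrays of 3 h and between 27.5 and 34 at 5 min. Their bounds of 3 h over 5 min were 1.47-fold, 1.46-fold, 1.20-fold and 1.50-fold, and none passed (adjusted p in limma of 0.138, 0.312, 0.450 and 0.122). ASCRP4003026 differed in shape, since its level in replicate 1 of 24 h (4.20 log2 units) was below that in replicates 1 and 2 of 3 h (4.59 and 4.81). ASCRP4009898 belonged with the pair of bright arrays, at 50, 39 and 375.5 at 3 h and 613, 132 and 134.5 at 24 h.

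**Figure D5:**
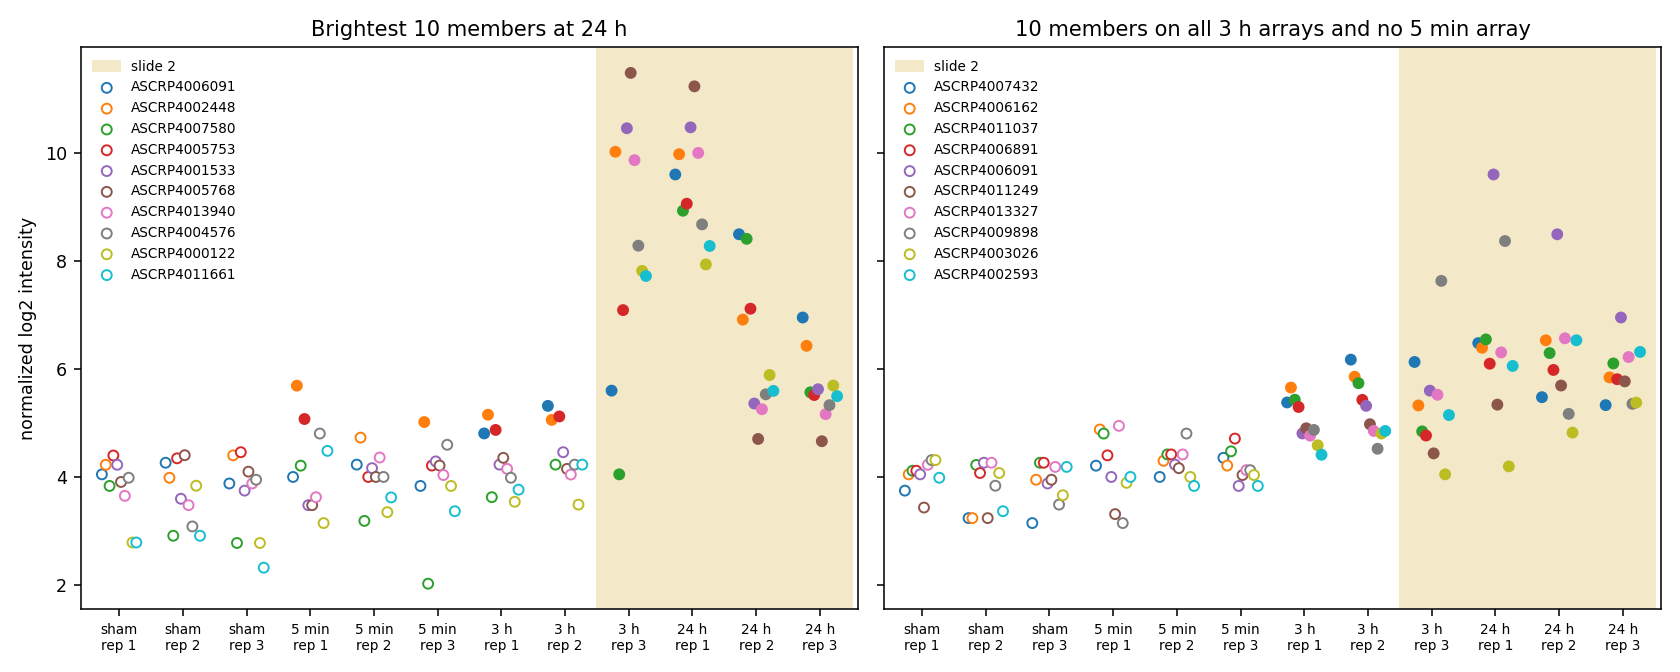
Normalized log2 intensity on each array of the 10 members with the highest mean at 24 h (left) and of 10 members detected on all 3 h arrays and on no 5 min array (right). Filled points were well above background and hollow points were not. On the left 7 of 10 probes were brightest on replicate 3 of 3 h and replicate 1 of 24 h. On the right the slide 1 arrays of 3 h stood above all of 5 min except for ASCRP4013327 and ASCRP4009898.

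The edge of the rule was soft. The members with the lowest 24 h array were ASCRP4001987, at 104.5, 123 and 120 raw units at 24 h, and ASCRP4001349, at 110.5, 125 and 123. Just outside, ASCRP4001802 read 145, 147 and 144 and ASCRP4003050 read 212, 154.5 and 136, and each missed the call on 1 array of 24 h. Both outside probes were brighter than both inside probes on every 24 h array. ASCRP4001349 also had the lowest adjusted p among the members for replicate 3 against replicates 1 and 2 of 3 h. It read 28.5, 25 and 191 at 3 h, a difference of 3.69 log2 units (SE 0.56, adjusted p in limma 0.0598, from 0.000137 to 0.525 over the alternatives). Its 24 h arrays did not share this level.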

How the data were processed

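Per the labels and the methods, arrays were scanned and read with Agilent Feature Extraction 11.0.1.1. The authors deposited spot intensity values (pixel medians of spot and local background) with detection calls, and one table of log2 values, quantile normalized between arrays, which was used as an alternative. Members and lists were chosen with earlier results of these data known.

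Here the spot median less local background by normexp (offset 0) was quantile normalized over all spots and logged to base 2 in limma 3.58.1 (R 4.3.3). Groups came from the labels and slides from the file headers. Spots flagged as outliers were left out of the fit. One model held the 4 groups, and a second held group and slide. Moderated two-sided tests were adjusted by Benjamini-Hochberg over all circRNA probes, without a filter on dim probes. SE is limma's, and SD is over 3 arrays. A brightness filter on all 12 arrays, set here at 1.1 times the negative control 95th percentile of normalized intensity, would have kept 6 members. The methods do not say how their control level was set. The number of arrays limits the precision. In a simulated data set with 200 probes shifted by 2 log2 units, 138 were recovered for 3 h against 5 min with 8 false calls, and 110 within slide 1 with 1. That shift was larger than the member median of 0.43 log2 units, so these counts do not give the recovery for the members.

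Probes were matched to circRNA names in the study's list by mean and log2 fold change within 5e-04. No member matched, so no host gene list could be applied to the members. Levels of the named circRNAs outside the set are not reported here.

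Members were named by rule: the 10 with the highest mean at 24 h; those called within slide 1 (none); of those detected on all 3 h and no 5 min arrays, the 10 highest in replicates 1 and 2 of 3 h; and 2 on each side of the rule's edge.

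The alternatives tried are listed by their effect in the closing section.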

Additional observations from a re-analysis of the deposited data

How the results depend on the processing

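The detection rule gave 152 probes. It gave 244 with the negative-control limit (26 shared with the 152) and 317 with the scanner's positive and significant call (15 shared), and 157 to 318 when 1 SHAM or 24 h array was left out, the highest without 24 h replicate 3. For 3 h against 5 min, 1 member was called. There were 0 without background subtraction, with a normexp offset of 50, with a filter on all 12 arrays, with a required change of 2 log2 units, or with the arrays of 3 h and 5 min fitted alone. The replicate block also gave 0, and same-numbered samples of 3 h and 5 min did not deviate together (r = -0.18, -0.02 and -0.05). There were 3 with the processed signal scaled to its 75th percentile (1.29% of all probes) and 53 with array weights, which called 42.9% of all probes. Leaving out 1 array gave 0 to 1. Leaving out both 3 h replicate 3 and 24 h replicate 1, chosen after seeing the data, gave 5 (4.73% of all probes).

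Within slide 1 the count was 0. It was 4 with cyclic loess (1.99% of all probes), 1 with the 75th percentile (2.36%) and 46 with array weights (38.4%). It was 0 to 5 when 1 array was left out, at 2 without 5 min replicate 1 (3.2%) and 5 without 24 h replicate 1 (4.72%). For replicate 3 against replicates 1 and 2 of 3 h the count was 0. It was 1 without background subtraction, 1 with an offset of 50, 1 with the authors' log2 table, 59 with the 75th percentile (6.27% of all probes), 47 with array weights (24.3%), and 0 to 34 when 1 array was left out (34 without 24 h replicate 1). The single call was ASCRP4001349 in each of the 3 cases, where 0.0421%, 0.0351% and 0.0235% of all probes were called. The member medians shrank with less background correction and the median of replicate 3 against 1 and 2 grew with the 75th percentile, as given above. With the filter on all 12 arrays the 6 members left had a median of -0.23 for 3 h against 5 min. The cause of these changes was not tested. On each array most members lay within 2 times the negative control median. It was exceeded by 43 members on replicate 1 of 24 h, by 27 on replicate 3 of 3 h and by at most 8 on any other array, which limits how members can be ranked.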
